A study of Mus musculus with 8 samples.

Results

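The genes described here encode the scaffold of the extracellular matrix and the proteins that tie cells to it: collagens, laminins, syndecans, thrombospondins, and the genes Fn1, Sparc, Postn, Vcan and Hspg2. They were chosen by name among the protein-coding rows of the count table, which gave 68 genes of 54532 in all, 22046 of them protein-coding. Collagens are triple helices of 3 chains that form fibrils, networks or filaments, and laminins are cross-shaped trimers of an alpha, a beta and a gamma chain in basement membranes. Syndecans are cell-surface proteoglycans whose heparan sulfate chains bind matrix proteins, growth factors and chemokines. Fibroblasts, endothelial cells and epithelial cells are the usual sources of fibrillar and basement membrane matrix, whereas macrophages are known to make fibronectin and some collagens.

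The cells were neutrophils from mammary tumours of Balb/c mice that had received 2208L mouse mammary tumour cells in the fat pad. All mice carried the same tumour line and no treatment is labelled. Tumours were dissociated at a diameter of 1 cm, and cell sorting gave an ICAM1high and an ICAM1low fraction, with 4 libraries each. The sources used here give neither age nor sex of the mice. The submitters label the 4 libraries of each fraction as biological replicates without saying whether each came from a different mouse, and p-values therefore cover the spread among these libraries. Library totals ran from 10328575 to 22751975 counts. Matrix genes took 0.118% to 0.220% of the counts in ICAM1high and 0.0485% to 0.0877% in ICAM1low. Without Fn1 and Sdc3 the shares overlapped, at 0.0634% to 0.110% in ICAM1high and 0.0435% to 0.0762% in ICAM1low. In each library, 51 to 61 of the 68 had at least 1 count.

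Sdc3, Col14a1 and Fn1 were far higher in ICAM1high cells, while most of the basement membrane genes that passed the test, such as Lama4, Col18a1 and Col4a2, were lower. Of the 68 genes, 48 had enough counts to be tested and 20 did not. In edgeR's quasi-likelihood test, with Benjamini-Hochberg adjustment over all 14051 genes tested, 8 of the 48 rose in ICAM1high, 14 fell and 26 did not pass an adjusted p of 0.05. Over all genes tested, 42.1% passed, 22.6% as higher and 19.6% as lower; among the 48 matrix genes the shares were 16.7% and 29.2%. The median log2 fold change of the 48 was -0.58, beside 0.08 for all genes tested. Values are given in CPM, counts relative to the library's total after TMM, edgeR's correction for differences in library composition. The 4 libraries of ICAM1high all lay above the 4 of ICAM1low for 6 of the 48 genes, and all lay below for 10; over all genes tested the shares were 23.4% and 18%.

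**Figure D1:**
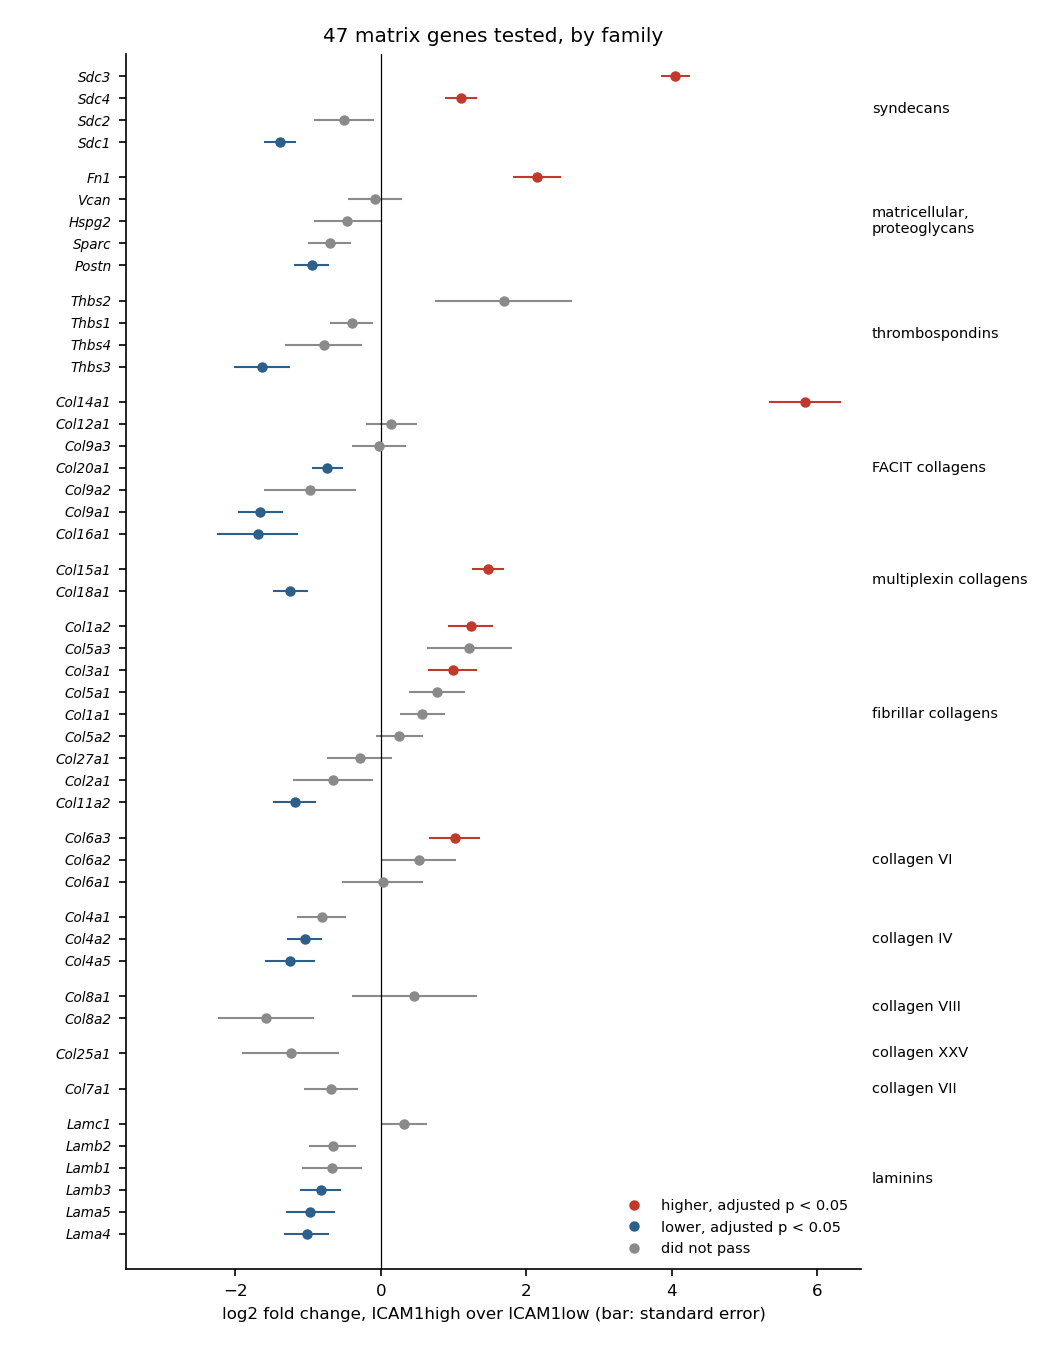
Log2 fold change of ICAM1high over ICAM1low for 47 of the 48 matrix genes tested (x axis; bars are standard errors, n = 4 libraries per group), grouped by family on the y axis. Col14a1 at 5.83 and Sdc3 at 4.05 lie far to the right, and 5 of the 6 laminin chains drawn lie left of 0.

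Whether the smaller differences passed depended on the scaling, as did the direction of some genes that did not pass. Scaled by library totals alone, the median of all genes moved from 0.08 to 0.76 and that of the matrix genes from -0.58 to 0.08. The 8 higher genes all passed in the same direction, and of the 14 lower genes only Sdc1, at -0.70 (adjusted p = 0.0346), and Col9a1, at -0.96 (adjusted p = 0.0221), still passed. The other 12 kept a negative sign without passing. Col1a1, Col5a1, Col5a2, Col5a3 and Lamc1 passed as higher there, so that 13 matrix genes (27.1% of the 48) were higher and 2 (4.17%) were lower. Over all genes tested with that scaling, 48.5% were higher and 5.97% were lower, so the share of matrix genes called higher was below that of all genes there as well. The share called lower was above that of all genes with TMM (29.2% against 19.6%) but not with library totals. Differences below are on the TMM scale, that is, relative to most other genes.

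**Figure D2:**
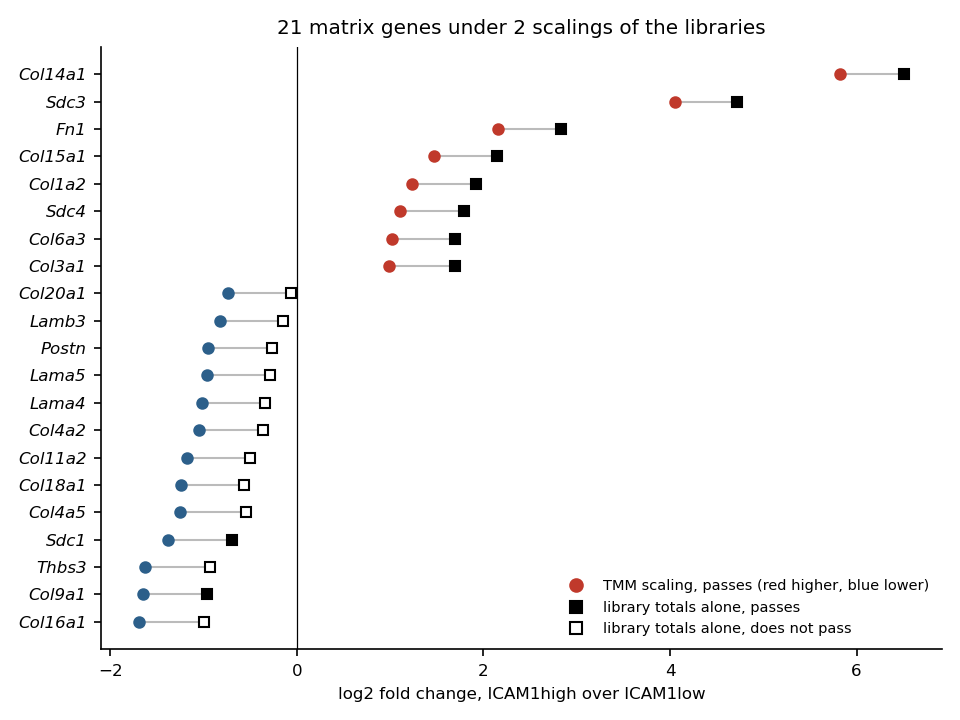
Log2 fold change of ICAM1high over ICAM1low (x axis) for 21 of the 22 matrix genes that passed with TMM scaling (circles), with the same genes scaled by library totals alone (squares, filled where they pass an adjusted p of 0.05). All squares lie to the right of their circles, and 2 of the 13 lower genes drawn keep a filled square.

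Markers of other cell types differed between the fractions in the same libraries. The fractions carried the neutrophil label, and 10 of 10 neutrophil markers were detected in both. Their summed level was 8709 to 11684 CPM in ICAM1high and 39232 to 78506 CPM in ICAM1low. All 10 passed as lower in ICAM1high without overlap (median log2 fold change -2.55), beside 19.6% of all genes. S100a8 and S100a9 averaged 1030 and 2392 CPM in ICAM1high and 8996 and 19178 CPM in ICAM1low. Macrophage markers summed to 4035 to 6850.1 CPM in ICAM1high and 870.2 to 1332 CPM in ICAM1low, and 9 of 10 rose, Cd68 being the exception. Epithelial and tumour cell markers such as Krt8 and Epcam summed to 122 to 179 CPM in ICAM1high and 291 to 499 CPM in ICAM1low; 6 of the 8 tested were lower, and Krt5 had 5 counts in all 8 libraries together. Fibroblast and pericyte markers, a list that also holds Col6a3, summed to 62.7 to 74.1 CPM in ICAM1high and 96.6 to 145 CPM in ICAM1low. Of the 11 tested, Pdpn, Thy1, Cspg4 and Col6a3 rose and Acta2, smooth muscle actin, was lower, while the fibroblast gene Dcn had 83 counts in all 8 libraries together. Acta2 alone, at 9.37 to 32.4 against 63.2 to 111 CPM, set the direction of that sum. The other 12 markers summed to 41.8 to 60.8 against 24.0 to 36.2 CPM, higher in ICAM1high without overlap. Endothelial markers summed to 22.1 to 37.3 CPM in ICAM1high and 17.8 to 58.8 CPM in ICAM1low, with Kdr higher and Plvap lower among 9 tested. The median log2 fold change of the 9 was -1.20, beside 0.08 for all genes tested. Kdr, which lay the other way, averaged 13.8 CPM in ICAM1high and 3.32 CPM in ICAM1low. Platelet markers summed to 19.5 to 30.4 CPM in ICAM1high and 8.69 to 12.6 CPM in ICAM1low. Pf4 carried that difference, at 11.7 to 23.4 against 0.587 to 1.81 CPM, and the other 7 markers overlapped, at 6.99 to 8.45 against 6.90 to 12.03 CPM in sum. Of the 4 tested, Pf4 and Treml1 rose and Itga2b was lower, while Ppbp had 10 counts and Gp1bb 1 count in all 8 libraries. Plasma cell markers, a list that includes Sdc1, summed to 48.1 to 101 CPM in ICAM1high and 28.1 to 37.6 CPM in ICAM1low. Ighm, the immunoglobulin M heavy chain, carried that difference, at 40.4 to 89.2 against 5.68 to 12.1 CPM. The other 5 markers, mostly Sdc1, summed to 7.70 to 11.7 against 17.5 to 31.1 CPM, lower in ICAM1high. Jchain had 69 counts over all 8 libraries, Igha 16, Mzb1 14 and Tnfrsf17 1, and none of these was tested. Acta2, Kdr, Pf4 and Ighm were singled out after their values were seen. The part of such cells in the matrix results was not tested. In sorted bulk libraries, fewer cells of a type and less RNA per cell cannot be told apart.

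**Figure D3:**
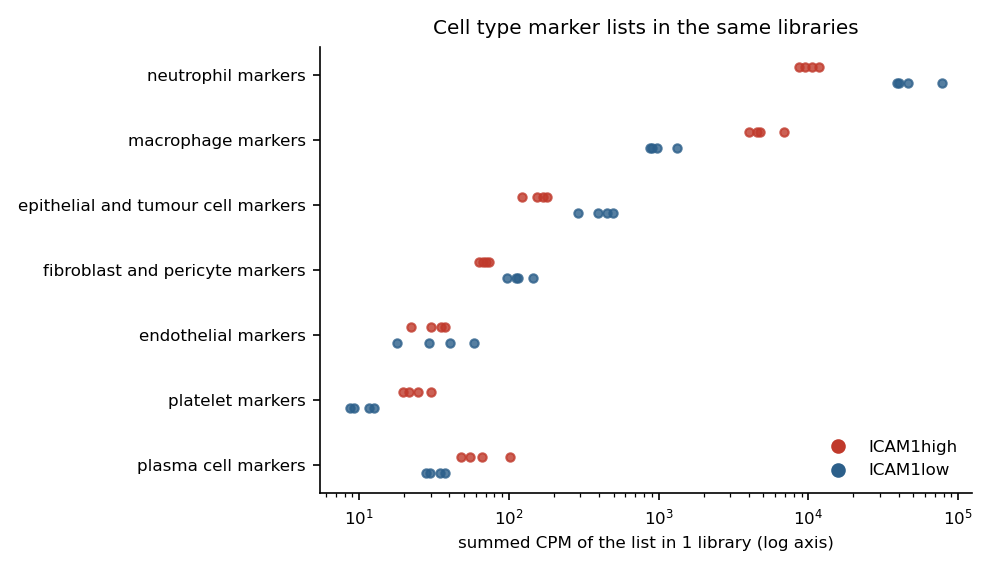
Summed CPM of each cell type marker list in 1 library (x axis, log scale; each point is a library, n = 4 per group). Neutrophil and epithelial lists lie higher in ICAM1low and the macrophage list in ICAM1high, and the endothelial ranges overlap; the fibroblast, platelet and plasma cell sums each follow 1 gene (Acta2, Pf4 and Ighm).

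The 4 syndecans, the transmembrane heparan sulfate proteoglycans, moved in different directions, with 2 higher, 1 lower and 1 that did not pass. Sdc3 (ENSMUSG00000025743, mm10 chromosome 4, 130792537 to 130826319), the syndecan first described in nerve tissue, measured 267, 314, 344 and 291 CPM in ICAM1high replicates 1 to 4 and 21.6, 20.7, 18.2 and 12.9 CPM in ICAM1low replicates 1 to 4. The groups were far apart and did not overlap, at a log2 fold change equal to 4.05 (SE 0.20, adjusted p = 1.11e-06). Sdc4 (ENSMUSG00000017009, mm10 chromosome 2, 164424247 to 164443887), a widely expressed syndecan found in focal adhesions, was at 119, 109.8, 81.7 and 112 CPM in ICAM1high replicates 1 to 4 and 29.9, 54.8, 55.3 and 56.3 CPM in ICAM1low replicates 1 to 4. It rose by 1.11 (SE 0.22, adjusted p = 0.00277) on the log2 scale, again without overlap, and ICAM1low replicate 1 was the lowest library. Sdc1 (ENSMUSG00000020592, mm10 chromosome 12, 8771323 to 8793715), the syndecan of epithelial cells and plasma cells, went the other way, at 8.85, 11.4, 9.65 and 7.70 CPM against 17.3, 30.7, 27.6 and 22.5 CPM in replicates 1 to 4 of each fraction. All 4 ICAM1high libraries lay below all ICAM1low libraries, and the log2 fold change was -1.38 (SE 0.22, adjusted p = 0.000802). Sdc2, the syndecan of fibroblasts and endothelium, had at most 3.36 CPM in any library, and its -0.50 did not pass (adjusted p = 0.357). Scaling cannot alter the ratio of genes within a library: the per-kilobase level of Sdc3 was 0.949 to 1.79 times that of Sdc4 in ICAM1high and 0.0976 to 0.308 times in ICAM1low.

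Upstream sequences are shown for Sdc3 and Sdc1 because these members of a family differed in opposite directions. Each is the stretch from 250 to 81 bases before the RefSeq start of the gene (GRCm38.p6), 5′ to 3′ on the gene's strand, with GGGCGG, the GC box, or its reverse complement in capitals. The Sdc3 window (chr4:130792287-130792456, + strand) holds 1 such box. The Sdc1 window (chr12:8771146-8771315, + strand), which also overlaps an exon of Gm4755, holds 2. Among 32851 RefSeq promoter windows of this length, 19.5% hold at least 1, as do 34.5% of the 55 windows that belong to 50 of the 68 matrix genes. A match is a description of the letters and not a bound site.
Sdc3: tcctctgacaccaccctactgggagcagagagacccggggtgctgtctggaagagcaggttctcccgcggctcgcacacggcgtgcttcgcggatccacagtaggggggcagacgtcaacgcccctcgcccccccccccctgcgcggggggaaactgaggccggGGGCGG
Sdc1: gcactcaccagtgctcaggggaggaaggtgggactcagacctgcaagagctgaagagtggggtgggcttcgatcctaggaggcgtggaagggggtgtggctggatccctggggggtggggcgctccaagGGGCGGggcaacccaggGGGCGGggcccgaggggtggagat

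Fn1 (ENSMUSG00000026193, mm10 chromosome 1, 71585520 to 71653200) encodes fibronectin, the adhesive glycoprotein that integrins bind on cell surfaces. It measured 194, 511, 559 and 429 CPM in ICAM1high replicates 1 to 4 and 95.7, 112, 113 and 59.5 CPM in ICAM1low replicates 1 to 4. ICAM1high replicate 1 was the lowest of its group and still above every ICAM1low library, and the log2 fold change was 2.15 (SE 0.33, adjusted p = 0.000601). Postn (ENSMUSG00000027750, mm10 chromosome 3, 54361109 to 54391037), the fibroblast protein periostin, was at 17.6, 24.7, 27.8 and 26.0 CPM against 46.9, 41.9, 65.3 and 31.3 CPM and lower in all ICAM1high libraries (log2 difference -0.95, SE 0.24, adjusted p = 0.00882). Sparc, a collagen-binding matricellular protein, was at 16.8, 21.5, 16.8 and 19.9 CPM against 16.6, 49.9, 23.4 and 32.3 CPM. Its groups overlapped at ICAM1low replicate 1, and -0.70 did not pass (adjusted p = 0.0808) although it did without that library, at -0.90 (adjusted p = 0.0179). Hspg2, which encodes the basement membrane proteoglycan perlecan, was at 3.00, 11.6, 9.99 and 11.2 CPM against 14.7, 17.9, 11.8 and 4.68 CPM, with overlapping groups and a log2 fold change of -0.46 (adjusted p = 0.453). Vcan, the large chondroitin sulfate proteoglycan versican, stayed between 2.02 and 7.93 CPM in all 8 libraries, and its -0.08 did not pass (adjusted p = 0.879).

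Thrombospondins are secreted calcium-binding glycoproteins, and per kilobase of gene length Thbs1 was far above the other members of its family in both fractions. Thbs1, a ligand of Cd47 and an activator of latent TGF-beta that platelets and myeloid cells release, was at 24.1, 56.0, 60.4 and 53.4 CPM against 77.9, 56.6, 79.4 and 42.1 CPM. Its groups overlapped, ICAM1high replicate 1 being the lowest of the 8, and -0.40 did not pass (adjusted p = 0.301). Thbs3 was at 0.946, 1.19, 1.496 and 1.68 CPM against 5.87, 1.96, 4.03 and 4.56 CPM and lower in every ICAM1high library (log2 difference -1.63, SE 0.39, adjusted p = 0.00702). Thbs3 shares 318 exon bases with Mtx1 on the opposite strand, a gene with 1756 counts beside the 359 of Thbs3 over the 8 libraries. No strand setting is stated, so reads from the shared stretch cannot be told apart. Thbs2 had 0 counts in ICAM1low replicates 1 and 4 and at most 2.60 CPM elsewhere, with 1.69 (adjusted p = 0.173), and Thbs4 was at -0.78 (adjusted p = 0.262).

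Among FACIT collagens, which sit on the surface of fibrils, Col14a1 stood alone. Col14a1 (ENSMUSG00000022371, mm10 chromosome 15, 55307750 to 55520803) measured 48.5, 111, 107 and 76.3 CPM in ICAM1high replicates 1 to 4 and 2.57, 1.53, 1.67 and 0.312 CPM in ICAM1low replicates 1 to 4. The raw counts were 1179, 2603, 2213 and 1000 in ICAM1high and 35, 25, 29 and 5 in ICAM1low, and the log2 fold change was 5.83 (SE 0.49, adjusted p = 1.70e-05). Without ICAM1low replicate 4, the lowest library, it was 5.49 (adjusted p = 5.96e-06). The other 6 FACIT genes tested were at 24.4 CPM or less in every library. Col9a1, a chain of the cartilage collagen IX, was at 3.17, 3.75, 2.56 and 6.02 CPM against 9.98, 13.8, 9.15 and 15.4 CPM and lower without overlap (log2 difference -1.65, SE 0.30, adjusted p = 0.00178). Col20a1, a little studied FACIT collagen, was at 11.4, 9.58, 10.4 and 14.5 CPM against 24.4, 19.1, 17.3 and 15.4 CPM, also lower without overlap (log2 difference -0.73, SE 0.21, adjusted p = 0.0169). Col20a1 shares 79 exon bases on its own strand with BX649560.1, a gene with 615 counts beside its 2102, and reads from that stretch cannot be told apart. It fell short of the threshold without ICAM1high replicate 2, at -0.68 (adjusted p = 0.0538), and with the replicate number as a block, at -0.73 (adjusted p = 0.0639). Col16a1 was at 0.329, 1.70, 0.772 and 1.98 CPM against 3.37, 5.99, 1.84 and 3.99 CPM, with groups that overlapped and a log2 difference of -1.69 (SE 0.56, adjusted p = 0.0325). It did not pass without ICAM1high replicate 3, at -1.55 (adjusted p = 0.0845), or without ICAM1low replicate 2, at -1.38 (adjusted p = 0.101). Of the other chains, Col9a2, a partner of Col9a1, at -0.97, Col9a3 at -0.02 and the dense connective tissue collagen Col12a1 at 0.15 did not pass.

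The multiplexin collagens, Col15a1 and Col18a1, are basement membrane proteoglycans whose C-terminal ends give the angiogenesis inhibitors restin and endostatin. Col15a1 (ENSMUSG00000028339, mm10 chromosome 4, 47208161 to 47313167) measured 48.8, 50.7, 57.2 and 38.1 CPM in ICAM1high replicates 1 to 4 and 17.8, 19.5, 21.5 and 11.2 CPM in ICAM1low replicates 1 to 4. It was higher without overlap, by 1.47 (SE 0.22, adjusted p = 0.000533) on the log2 scale. Col18a1 (ENSMUSG00000001435, mm10 chromosome 10, 77052178 to 77166548) measured 11.7, 17.9, 13.5 and 17.0 CPM in ICAM1high replicates 1 to 4 and 29.6, 51.9, 26.2 and 34.4 CPM in ICAM1low replicates 1 to 4. It was lower without overlap (log2 difference -1.24, SE 0.24, adjusted p = 0.00246), so these genes of a closely related pair differed in opposite directions. Their upstream windows, cut as for the syndecans, are shown for this contrast; neither the Col15a1 window (chr4:47207762-47207931, + strand) nor the Col18a1 window (chr10:77166611-77166780, - strand) holds the letters GGGCGG on either strand.
Col15a1: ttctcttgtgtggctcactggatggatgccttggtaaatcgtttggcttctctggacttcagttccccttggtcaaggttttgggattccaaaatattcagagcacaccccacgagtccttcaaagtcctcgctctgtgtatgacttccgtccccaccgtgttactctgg
Col18a1: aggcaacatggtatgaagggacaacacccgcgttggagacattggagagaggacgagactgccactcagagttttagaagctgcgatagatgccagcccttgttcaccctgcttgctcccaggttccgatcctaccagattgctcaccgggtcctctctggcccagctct

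Fibrillar collagens I, III and V, the products of fibroblasts that form connective tissue fibrils, were measured with collagens II, XI and XXVII; of the 9 fibrillar genes tested, 2 passed as higher and 1 as lower. Col1a2 (ENSMUSG00000029661, mm10 chromosome 6, 4504814 to 4541544), the alpha2 chain of type I collagen, was at 11.8, 26.7, 13.4 and 17.2 CPM against 5.58, 8.87, 9.61 and 5.18 CPM, without overlap (log2 difference 1.24, SE 0.31, adjusted p = 0.00936). Col3a1, the type III chain, was at 11.5, 31.3, 9.85 and 17.0 CPM against 8.58, 8.38, 10.2 and 7.93 CPM; ICAM1high replicate 2 was by far the highest library, and the groups overlapped (log2 difference 0.99, SE 0.34, adjusted p = 0.0378). Without that library Col3a1 was at 0.52 (adjusted p = 0.14). It also missed the threshold without ICAM1high replicate 4 or any ICAM1low replicate, with adjusted p from 0.0614 to 0.0855, and with the replicate block (adjusted p = 0.12) and in limma-voom (adjusted p = 0.0815). Col1a1, the alpha1 chain that pairs with Col1a2, was at 21.8, 47.9, 23.2 and 26.2 CPM against 12.5, 19.3, 30.0 and 18.2 CPM. ICAM1low replicate 3 exceeded 3 ICAM1high libraries, and 0.57 did not pass (adjusted p = 0.167).

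Collagen V chains, which regulate the width of fibrils, were at 5.07 CPM or less in every library, with Col5a1 at 0.77, Col5a2 at 0.26 and Col5a3 at 1.22, none of which passed; Col5a3 did without ICAM1low replicate 2, at 1.88 (adjusted p = 0.0295). Col11a2, a cartilage collagen, was at 5.06, 5.07, 7.19 and 7.09 CPM against 22.5, 10.2, 12.8 and 9.86 CPM, and it was the only fibrillar gene that was lower (log2 difference -1.18, SE 0.30, adjusted p = 0.00942). Col27a1, a fibrillar collagen of cartilage, was at 6.05, 11.03, 5.02 and 11.7 CPM against 12.99, 13.1, 2.88 and 12.4 CPM, with ICAM1low replicate 3 far below the others of its group and no difference that passed (-0.29, adjusted p = 0.635). Col2a1, the main collagen of cartilage, was at -0.66 (adjusted p = 0.365).

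Collagen VI forms beaded filaments from chains encoded by Col6a1, Col6a2 and Col6a3. Of these Col6a3 passed as higher, at 3.37, 6.69, 4.92 and 7.40 CPM against 4.04, 2.45, 2.93 and 1.62 CPM (log2 difference 1.02, SE 0.35, adjusted p = 0.0384), with groups that overlapped. The adjusted p of Col6a3 was 0.0633 to 0.115 when any library other than replicate 1 of either fraction was left out, at log2 fold changes of 0.83 to 1.05, and 0.131 with the replicate block. Col6a2 was at 0.52 (adjusted p = 0.442) and Col6a1 at 0.03 (adjusted p = 0.974). Col6a6 was below the filter with 37 counts, all of them in ICAM1high, at 2, 12, 11 and 12 in replicates 1 to 4. Against a floor of 3 counts over the ICAM1low group it was 9.58-fold higher. That value pools the libraries and takes no account of the spread between them.

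Collagen IV, the network of all basement membranes, was represented by Col4a1, Col4a2 and Col4a5. Col4a1 and Col4a2 lie head to head on chromosome 8 and share 22 exon bases at their starts (mm10; Col4a1, 11198423 to 11312826, and Col4a2, 11312805 to 11449287). Col4a2 was at 16.2, 20.4, 16.6 and 26.8 CPM against 41.3, 52.7, 26.4 and 44.5 CPM; the groups overlapped only where ICAM1high replicate 4 passed ICAM1low replicate 3, and the gene was lower (log2 difference -1.05, SE 0.24, adjusted p = 0.006). Col4a1 was at 14.4, 23.2, 22.3 and 31.0 CPM against 36.7, 62.2, 18.7 and 41.7 CPM. Its library order was nearly that of Col4a2, with ICAM1low replicate 2 highest and ICAM1high replicate 1 lowest, but -0.81 did not pass (adjusted p = 0.0767). Without ICAM1low replicate 3 Col4a1 passed, at -1.05 (adjusted p = 0.0185). Per kilobase, the ratio of Col4a1 to Col4a2 ranged over 0.786 to 1.19 in ICAM1high and 0.628 to 1.05 in ICAM1low (exact permutation p = 0.286, adjusted p = 0.321). Col4a5, a chain of specialised basement membranes, was at 1.81, 3.36, 3.67 and 5.34 CPM against 7.48, 8.93, 5.64 and 11.4 CPM and lower without overlap (log2 difference -1.25, SE 0.34, adjusted p = 0.0145).

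Of the 6 laminin chains tested and described here, Lamb3, Lama5 and Lama4 were lower in ICAM1high and none was higher. Epithelial markers were lower in the same fraction (122 to 179 against 291 to 499 CPM in sum). Endothelial markers overlapped in sum (22.1 to 37.3 against 17.8 to 58.8 CPM), at a median log2 fold change of -1.20. The part of epithelial and endothelial cells in the laminin values was not tested. Lamb3 (ENSMUSG00000026639, mm10 chromosome 1, 193207699 to 193343878), the beta3 chain of an epithelial laminin, had the highest level per kilobase of these laminins, at 61.1, 86.1, 116 and 88.8 CPM in ICAM1high replicates 1 to 4 and 188, 153, 199 and 83.5 CPM in ICAM1low replicates 1 to 4. The groups overlapped, since ICAM1low replicate 4 lay within the ICAM1high range, and the log2 fold change was -0.83 (SE 0.28, adjusted p = 0.0353). The call on Lamb3 was lost without any library other than ICAM1high replicate 3 or ICAM1low replicate 4, with adjusted p of 0.0609 to 0.102 and log2 fold changes of -0.84 to -0.69, and with the replicate block (adjusted p = 0.0823).

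Lama5, the alpha5 chain of endothelial and epithelial laminin-511, was at 8.10, 17.5, 22.7 and 19.4 CPM against 46.0, 36.4, 30.8 and 19.0 CPM. ICAM1low replicate 4 fell among the ICAM1high libraries, and the log2 fold change was -0.97 (SE 0.34, adjusted p = 0.0394). Without ICAM1high replicate 2 or 4 the adjusted p of Lama5 was 0.0751 or 0.0553, without ICAM1low replicates 1, 2 and 3 it was 0.102, 0.0877 and 0.069, and with the replicate block it was 0.13. Lama4, an endothelial alpha chain, was at 2.55, 2.98, 3.33 and 5.87 CPM against 6.68, 10.1, 6.38 and 6.37 CPM and lower without overlap (log2 difference -1.02, SE 0.31, adjusted p = 0.023); it missed the threshold without ICAM1high replicate 2 or 3 (adjusted p = 0.0642 and 0.0571), without ICAM1low replicate 2 (0.0715) and with the replicate block (0.0587). Lamc1, the gamma1 chain that most laminins share, was at 10.2, 27.0, 30.3 and 29.8 CPM against 20.8, 23.2, 18.4 and 15.1 CPM. ICAM1high replicate 1 lay far below the rest of its group; 0.33 did not pass (adjusted p = 0.425) but did without that library, at 0.55 (adjusted p = 0.0333). Lamb2, at 5.18, 9.92, 6.32 and 6.25 CPM against 17.2, 11.99, 6.61 and 8.11 CPM, and Lamb1 did not pass, at -0.66 (adjusted p = 0.129) and -0.67 (adjusted p = 0.211); without ICAM1low replicate 4 Lamb1 was at -0.93 (adjusted p = 0.0461).

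**Figure D4:**
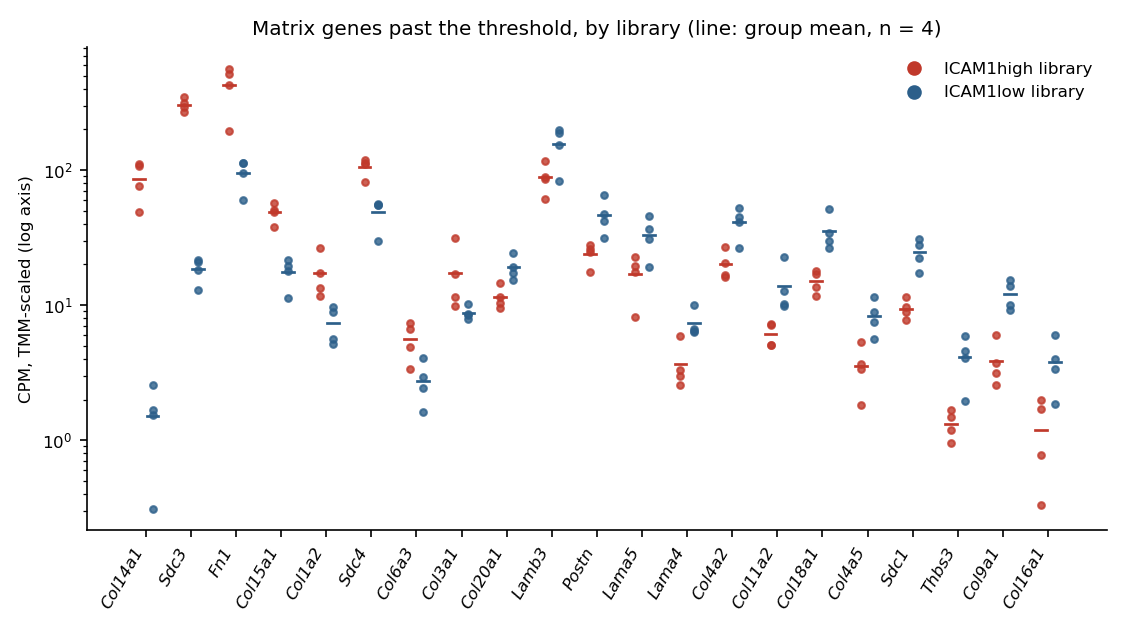
CPM of 21 of the 22 matrix genes past an adjusted p of 0.05 in each library (y axis, log scale; each point is a library, lines are group means, n = 4). Sdc3, Fn1 and Col14a1 separate widely, while the points of Col3a1, Col6a3, Lamb3, Lama5, Col4a2 and Col16a1 overlap between the groups.

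Chains that assemble into a protein, and Sdc3 with Sdc4, were compared as ratios within a library, which no scaling can change; 9 ratios were tested by two-sided exact permutation, whose smallest possible p is 0.0286, with adjustment over the 9. The ratio of Lama5 to Lamc1 per kilobase was 0.471 to 0.575 in ICAM1high and 0.915 to 1.61 in ICAM1low (exact permutation p = 0.0286, adjusted p = 0.0857). For Col1a1 to Col1a2 it was 2.89 to 3.50 in ICAM1high and 4.11 to 6.66 in ICAM1low (exact permutation p = 0.0286, adjusted p = 0.0857). These ratios did not overlap between the fractions, like that of Sdc3 to Sdc4, and all of them had the smallest possible p. None of the 9 passed after adjustment, but with so few ratios at that p none could pass, however large its shift. The adjusted p therefore decides nothing about these ratios. Lengths are those deposited, which for 66 of the 68 genes equal all annotated exons joined, so that a gene with long unused exons appears low per kilobase.

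Per kilobase of gene length, Sdc3 was the highest matrix gene in ICAM1high, followed by Sdc4, Fn1, Lamb3 and Col14a1. The mean levels in CPM per kilobase were 50.8 in ICAM1high and 3.06 in ICAM1low for Sdc3, 41.5 in ICAM1high and 19.3 in ICAM1low for Sdc4 and 36.2 in ICAM1high and 8.15 in ICAM1low for Fn1. For Lamb3 they were 13.3 in ICAM1high and 23.6 in ICAM1low, and for Col14a1 12.2 in ICAM1high and 0.217 in ICAM1low. In ICAM1low Lamb3 was the highest, then Sdc4 and Thbs1, and Col14a1 ranked among the lowest of the tested genes. In ICAM1high the fibroblast collagens Col1a1, at 4.53 CPM per kilobase, and Col3a1, at 1.77, lay below Sdc3, Sdc4, Fn1, Lamb3 and Col14a1. In ICAM1low Col1a1, at 3.04, was level with Sdc3 at 3.06. Both Col1a1 and Col3a1, the latter at 0.893, exceeded Col14a1 there.

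**Figure D5:**
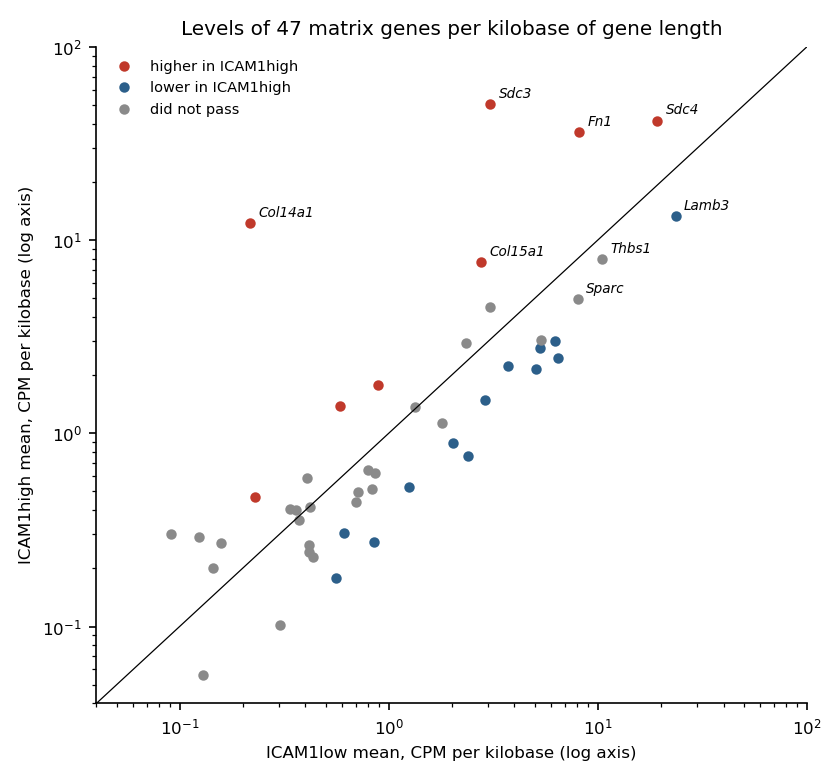
Mean level of 47 of the 48 matrix genes tested in CPM per kilobase of gene length, ICAM1low on the x axis and ICAM1high on the y axis (log scales, n = 4 libraries per group; the line marks equal levels). Sdc3 and Col14a1 lie farthest above the line, and Lamb3 is the most abundant gene below it.

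The remaining collagens were scarce. Col7a1, the anchoring fibril collagen, was at -0.68 (adjusted p = 0.164), Col8a1 at 0.46, Col8a2 at -1.58 and the transmembrane Col25a1 at -1.24, and none passed; Col8a2 did without ICAM1low replicate 4, at -1.82 (adjusted p = 0.0402). Of the 20 genes below the filter, 11 had at least 10 counts over all libraries: Col6a4 with 54, Col4a6 with 48, Lama3 with 39, Col23a1 with 38, Col11a1 and Col6a6 with 37 each, Lama2 with 32, Col10a1 with 19, Col4a4 with 18, Col4a3 with 12 and Lamc3 with 10. Lama2 had 30 counts in ICAM1high and 2 in ICAM1low, and Col4a3 had 11 and 1. Col4a4, with 4 and 14, and Col6a4, with 17 and 37, lay the other way, and none of these was tested. Near 0 were Col13a1 with 9 counts, Col17a1 and Lama1 with 4 each, Col6a5 and Col28a1 with 2 each, and Col24a1 with 1. Col19a1, Col22a1 and Col26a1 had no count in any library, which at these depths means that they were not detectable.

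Genes around the matrix were followed in 4 further lists. Of 22 matrix receptors tested, 8 rose (36.4%) and 5 were lower (22.7%), beside 22.6% and 19.6% of all genes. Their median log2 fold change was 0.08. Scaled by library totals, where 48.5% of all genes were higher and 5.97% lower, 11 rose and 1 was lower. Stab1, a scavenger receptor that takes up SPARC, was at 309 ± 72.9 against 21.2 ± 4.62 CPM (SD, n = 4), and differed on the log2 scale by 3.87 (SE 0.24, adjusted p = 3.61e-06). Itga9, an integrin chain that binds tenascin, was at 72.9 ± 11.1 against 2.90 ± 1.33 CPM (log2 difference 4.65, SE 0.33, adjusted p = 6.56e-06), and Itgb5, an integrin chain that pairs with alphaV, at 264 ± 21.9 against 43.4 ± 11.6 CPM (log2 difference 2.60, SE 0.22, adjusted p = 1.51e-05). Among 18 enzymes that make or trim heparan sulfate, the chain that syndecans carry, 13 rose (72.2%, beside 22.6% of all genes) and 0 were lower, with a median of 1.18. The number that rose was 10 with RLE scaling, where 21% of all genes rose, and 11 with upper-quartile scaling, where 21.8% did. It was 17 under library totals, beside 48.5% of all genes, and 0 were lower under each of these scalings. Xylt2, which adds the first sugar, was at 32.9 ± 2.70 against 4.48 ± 1.21 CPM (log2 difference 2.87, SE 0.22, adjusted p = 1.02e-05). Xylt1, listed for the same step, was more abundant in both fractions, at 158 ± 58.8 against 258 ± 81.3 CPM. It leaned the other way without passing (log2 difference -0.71, SE 0.32, adjusted p = 0.101). The chain-starting Extl3 was at 75.0 ± 9.75 against 12.1 ± 4.52 CPM (log2 difference 2.64, SE 0.29, adjusted p = 8.73e-05). The sulfotransferase Hs2st1 was at 24.6 ± 3.13 against 11.2 ± 0.956 CPM (log2 difference 1.14, SE 0.17, adjusted p = 0.000503).

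Of 23 enzymes and chaperones of collagen making tested, 8 rose (34.8%) and 4 were lower (17.4%), beside 22.6% and 19.6% of all genes. Their median was 0.18. Under library totals, where 48.5% of all genes were higher and 5.97% lower, 11 rose and 1 was lower. P4hb, the protein disulfide isomerase subunit of prolyl 4-hydroxylase, was at 1295 ± 121 against 3572 ± 734 CPM (log2 difference -1.46, SE 0.18, adjusted p = 0.00015). P3h1, a prolyl 3-hydroxylase, rose by 1.70 (SE 0.24, adjusted p = 0.000368), and Loxl3, a lysyl oxidase that crosslinks collagen, by 2.90 (SE 0.42, adjusted p = 0.000471). Among 24 other matrix genes tested, 4 rose (16.7%) and 7 were lower (29.2%), beside 22.6% and 19.6% of all genes. Their median of -0.30 turned to 0.38 under library totals. There 6 rose and 4 were lower, beside 48.5% and 5.97% of all genes. Emilin2, an elastic fibre protein, was at 992 ± 57.0 against 2571 ± 157 CPM (log2 difference -1.37, SE 0.13, adjusted p = 4.08e-05). Ecm1, a secreted matrix glycoprotein, rose by 1.88 (SE 0.19, adjusted p = 4.90e-05), and Emilin1 by 3.45 (SE 0.38, adjusted p = 8.39e-05).

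Library names in the labels carry numbers from separate runs of numbering, replicates 1 and 2 of both fractions in the earlier-listed run and replicates 3 and 4 in the other. With replicates 1 and 2 alone, 6 matrix genes were higher and 14 were lower of 49 tested (12.2% and 28.6%), beside 11.9% and 9.89% of 14323 genes. With replicates 3 and 4 alone, 5 were higher and 2 were lower of 50 tested (10% and 4%), beside 11.4% and 11% of 14541 genes. The median log2 fold change of the matrix genes was -0.82 in replicates 1 and 2, beside 0.08 for all genes. In replicates 3 and 4 it was -0.08, beside 0.05. Sdc3 was at 3.78 and 4.31 in these pairs of replicates, Col14a1 at 5.29 and 6.46, Fn1 at 1.76 and 2.48, and Col15a1 at 1.41 and 1.502, and all 4 passed in both. Sdc1, at -1.25 and -1.57, and Col18a1, at -1.46 and -1.05, were the lower genes that passed in both. Sdc4 was at 1.44 and 0.74 (adjusted p = 0.0621 in the latter), and Lama5 at -1.69 and -0.28 (adjusted p = 0.507 in the latter). Whether the runs differ from each other was not tested, and the labels do not say what the numbers mark.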

How the data were processed

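Read counts per gene of 8 mRNA libraries were analysed as deposited; the authors' table holds whole-number counts without normalization, and the deposited gene length (an other quantity, in bases) was used only for levels per kilobase. HISAT2 and mm10 are named in the submitters' processing notes; no source used here gives the counting tool, strand setting or annotation release. All 68 genes had the same position in GENCODE M21, and 4 tested genes (Col4a1, Col4a2, Col20a1 and Thbs3) share exon bases with a gene holding at least 10% of their counts.

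After filterByExpr (minimum count 10) and TMM scaling, edgeR 4.0.16 (R 4.3.3) fitted an unpaired quasi-likelihood model, with Benjamini-Hochberg adjustment over 14051 genes. Each standard error was derived from the fold change and its F statistic, as their quotient after a square root of the latter. Alternatives used DESeq2 1.42.0 and limma 3.58.1 (voom). Every tested gene was named except 1, which is in the counts but not reported here, with values by library where it passed or averaged at least 10 CPM in a fraction; other lists give up to 3 members with the smallest p. Genes listed as Ccn1 to Ccn4 were matched by RefSeq synonyms. The members and lists were chosen with earlier results of these data known.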

Additional observations from a re-analysis of the deposited data

Results flagged for a closer look

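Of 96 sets of 4 libraries (48 genes in 2 fractions), 8 held a library whose gap to the nearest other was above Dixon's 95% critical share of the range; chance gives about 1 in 20. Among collagens, ICAM1low replicate 2 had Col6a1 at 14.4 CPM beside 2.13 to 3.74 in the others, and ICAM1high replicate 2 had Col1a1 at 47.9 CPM beside 21.8 to 26.2. Col27a1 was at 2.88 CPM in ICAM1low replicate 3 beside 12.4 to 13.1, and Col8a2 at 2.88 CPM in that same library beside 0.624 to 0.978. ICAM1high replicate 4 held Col9a3 at 2.29 CPM beside 1.32 to 1.45. Among laminins, Lama4 was at 10.1 CPM in ICAM1low replicate 2 beside 6.37 to 6.68, and Lamc1 at 10.2 CPM in ICAM1high replicate 1 beside 27.0 to 30.3. Sdc4 was at 29.9 CPM in ICAM1low replicate 1 beside 54.8 to 56.3 in the other ICAM1low libraries.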

How the results depend on the processing

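The 8 higher and 14 lower calls were recomputed under 21 alternatives. Library totals alone gave 13 higher and 2 lower, and replicates 3 and 4 alone gave 5 and 2; the other alternatives stayed within 1.5 times. Leaving out a library gave 6 to 10 higher and 10 to 16 lower. With the replicate block 6 were higher and 10 lower, and Col3a1, Col6a3, Lamb3, Lama5, Col20a1 and Lama4 lost their calls. The labels do not say whether same-numbered libraries are pairs. If they are, these calls do not hold in the fit that uses the pairing. Over all genes the block moved the calls from 3172 higher and 2748 lower to 2263 and 1975. The library-number run as a covariate left 6 higher and 11 lower, without Col3a1, Col6a3, Lamb3, Lama5 and Col16a1. Within each replicate, the library names of both fractions carry the same number. Same-numbered libraries of the fractions correlated in their deviations from the group means at -0.57, 0.21, 0.18 and -0.30 for replicates 1 to 4. Only those numbered 2 correlated best with their own number. Such correlations cannot exclude a shared source, so pairing remained unknown, and the main test was unpaired with the blocked fit given beside it. Sdc3, Col14a1, Fn1, Col15a1 and Sdc1 passed under every alternative. No gene that passed in the main test changed direction under an alternative.

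Genes that did not pass changed direction under some settings. Library totals alone gave Col27a1 0.40, Col2a1 0.00011, Col7a1 0.0058, Col9a3 0.68, Hspg2 0.21, Lamb2 0.0169, Sdc2 0.14, Thbs1 0.29 and Vcan 0.62. Replicates 3 and 4 alone gave Col1a1 -0.0101, Col27a1 0.0596, Col5a2 -0.19, Hspg2 0.32, Lamb1 0.23 and Vcan 0.41, and replicates 1 and 2 alone gave Col6a1 -0.20 and Lamc1 -0.24. DESeq2 and RLE scaling gave Col6a1 -0.027 and -0.028. With ICAM1high replicate 1 left out together with ICAM1low replicate 4, Col6a1 was at -0.13, Col9a3 at 0.0926 and Vcan at 0.15. Leaving out a library gave Col12a1 -0.13 to 0.34, Col6a1 -0.31 to 0.98, Col9a3 -0.24 to 0.06 and Vcan -0.38 to 0.15. The cause was not tested. Genes at a few counts per library are limited by depth.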
